A study of Mus musculus with 12 samples.

Results

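The genes described here encode the enzymes of cholesterol biosynthesis together with the SREBP2 system that sets their transcription and 3 of its targets in sterol transport. They were taken by symbol from a fixed list of 27 genes, and all 27 were found among the 50559 gene rows of the deposited tables. In pathway order they begin with 5 genes of the mevalonate steps, from the thiolase Acat2 through Hmgcs1, Mvk and Pmvk to the decarboxylase Mvd. Next come 3 of the isoprenoid steps (Idi1, Fdps, Ggps1) and 3 from squalene to lanosterol (Fdft1, Sqle, Lss). Then 9 run from lanosterol to cholesterol (Cyp51, Tm7sf2, Lbr, Msmo1, Nsdhl, Hsd17b7, Ebp, Sc5d, Dhcr7). The control genes are Srebf2, Scap, Insig1 and Insig2, and the transport genes are Stard4, Npc1 and Tmem97.

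RNA-seq was run on whole liver of C57BL/6N mice in 4 groups of 3 libraries, labelled as biological replicates. One group ate normal chow (NCD). The other 3 groups shared a diet high in fat (HFD), in which fat supplied 60% of the energy, for 12 weeks. Of these, 1 group had no compound named in its labels, 1 received compound C1 (HFD+C1) and 1 received compound C2 (HFD+C2), each given intraperitoneally at 5 mg/kg per day over 12 weeks. The series title calls C1 and C2 CYP4A inhibitors. The labels give no structures, no vehicle for the NCD and HFD groups and no age or sex. No compound was given on chow, so both compounds were measured on the high-fat diet only.

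Cholesterol is built from acetyl-CoA through mevalonate, isoprenoid pyrophosphates, squalene and lanosterol, and the liver is a main site of this synthesis. The transcription factor SREBP2, the product of Srebf2, is held in the endoplasmic reticulum by the sterol-sensing escort Scap bound to Insig proteins while sterols are plentiful. When sterols fall, Scap carries SREBP2 to the Golgi, where proteases release the part that enters the nucleus and raises transcription of nearly every gene of the pathway, usually beside the factor NF-Y, which binds CCAAT boxes. Insig1 is itself a target of SREBP, so it belongs both to the control of the pathway and to its output.

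The promoters of 5 enzymes whose counts were lower in HFD than in NCD, and of Srebf2, are shown because they carry the CCAAT box that most of these genes share. Each line gives the 180 bases before the RefSeq transcript start (GRCm38.p6), read 5′ to 3′ along the gene's strand. CCAAT or its reverse complement ATTGG is in capitals, as is the sterol regulatory element core TCACNCCAC in Hmgcs1.
Hmgcs1, chr13:119690171-119690350, plus strand: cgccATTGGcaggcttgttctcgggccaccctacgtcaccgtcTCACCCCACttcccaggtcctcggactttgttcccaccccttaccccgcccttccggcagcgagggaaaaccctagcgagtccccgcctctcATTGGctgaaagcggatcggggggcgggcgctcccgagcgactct
Idi1, chr13:8885426-8885605, plus strand: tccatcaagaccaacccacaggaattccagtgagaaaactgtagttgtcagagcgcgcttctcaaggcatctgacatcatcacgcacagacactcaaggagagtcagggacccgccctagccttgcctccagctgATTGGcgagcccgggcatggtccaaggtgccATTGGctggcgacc
Cyp51, chr5:4104698-4104877, minus strand: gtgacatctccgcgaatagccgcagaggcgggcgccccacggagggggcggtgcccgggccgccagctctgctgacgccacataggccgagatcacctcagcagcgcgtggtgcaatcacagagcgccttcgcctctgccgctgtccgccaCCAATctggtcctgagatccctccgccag
Tm7sf2, chr19:6067851-6068030, minus strand: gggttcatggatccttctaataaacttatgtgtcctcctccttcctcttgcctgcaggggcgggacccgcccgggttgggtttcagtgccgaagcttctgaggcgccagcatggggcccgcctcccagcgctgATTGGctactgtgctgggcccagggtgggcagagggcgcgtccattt
Msmo1, chr8:64733579-64733758, minus strand: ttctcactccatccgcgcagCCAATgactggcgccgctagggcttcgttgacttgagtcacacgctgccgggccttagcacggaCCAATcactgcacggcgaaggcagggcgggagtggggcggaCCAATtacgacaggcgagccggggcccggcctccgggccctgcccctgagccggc
Srebf2, chr15:82147089-82147268, plus strand: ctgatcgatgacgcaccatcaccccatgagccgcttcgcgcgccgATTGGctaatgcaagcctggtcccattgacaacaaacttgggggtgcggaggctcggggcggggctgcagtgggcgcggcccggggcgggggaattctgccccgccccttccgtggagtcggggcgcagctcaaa

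Of the 27 genes, 22 were matched to RefSeq promoters; Fdft1, Fdps, Sqle, Stard4 and Npc1 are named only. Over the 250 bases before the start, on either strand, CCAAT was present in at least 1 listed promoter of 20 of the 22 matched genes, against 37.5% of the 27025 genes in the same table. The Sp1 box GGGCGG was present in 20 of 22, against 35.4% of all genes. TCACNCCAC was present in 1 of 22, Hmgcs1, against 1.22% of all genes; these exact letters are 1 spelling of a degenerate element. Each motif was counted alone, whether or not it overlapped another. All 11 matched genes that fell on the high-fat diet held CCAAT, and so did 9 of the 11 matched genes that did not pass the test, with Acat2 and Scap the exceptions. Matches are letters in a window and do not show binding.

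Depth and composition differed between libraries. NCD replicate 2 had the fewest reads in genes, 4281210, and HFD replicate 1 the most, 32124248. On the CPM scale used here, 3 counts stood for 0.633 CPM in the former and 0.0997 CPM in the latter. Reads outside genes made up 58.2% of NCD replicate 1 and 47.1% of HFD+C2 replicate 1, and 27.3% to 40.7% of the other 10. The hepatocyte markers were all detected, with none of the 6 at 0, and their summed level was 33456 to 82448 CPM in NCD, 92903 to 111520 in HFD, 105821 to 116516 in HFD+C1 and 86959 to 156457 in HFD+C2. The 6 Kupffer cell and macrophage markers, none at 0, summed to 86.9 to 104 CPM in NCD, 96.2 to 129 in HFD, 160 to 203 in HFD+C1 and 125 to 252 in HFD+C2. In no library did the summed markers exceed 10.04 CPM for B and plasma cells (5 genes), 4.25 for T cells (4 genes, Trac at 0 in every group), 127 for stellate cells (5 genes), 96.7 for endothelium (5 genes), 11.8 for cholangiocytes (4 genes), 485 for erythroid cells (5 genes), 0.765 for adipocytes (3 genes, Adipoq at 0 in NCD and Lep in HFD) and 53.0 for pancreatic acini (5 genes, Prss2 and Amy2a5 at 0 in every group). CPM is the count scaled to a common library total of reads in genes, adjusted by TMM factors over all 12 libraries; it is not corrected for gene length and is compared only within a gene.

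The first question was what the high-fat diet did to the pathway. In HFD liver, 15 of the 27 genes fell relative to NCD and 0 rose, at an adjusted p under 0.05 (quasi-likelihood test of edgeR, Benjamini-Hochberg over 13864 genes). Among all genes tested, 3.44% were called lower and 2.59% higher. The genes that fell run through every section of the route, from Hmgcs1 to Dhcr7, and include Insig1, Stard4 and Tmem97. The log2 change was below 0 for 24 of 27 genes with a median of -1.19, against a median of -0.02 over all genes tested. The 3 HFD libraries all lay below the 3 NCD libraries for 20 of the 27 genes, where 18.7% of all genes did so; 1 gene, Insig2, had all HFD libraries above NCD, where 18.4% of all genes did so, and 6 overlapped. The call depends on few libraries: 22 genes were called without NCD replicate 1, 9 without NCD replicate 3, 8 without HFD replicate 2, and 2 (Pmvk and Sqle) without either HFD replicate 1 or HFD replicate 3, while the median stayed between -1.37 and -1.08. The share of all genes called, in either direction, moved too: it was 6.03% with all libraries, 13.7% without NCD replicate 1, 3.55% without NCD replicate 3, 0.940% without HFD replicate 2, and 0.165% and 0.179% without HFD replicates 1 and 3. Every NCD library also had a lower hepatocyte marker sum and a larger share of reads outside genes (35.7% to 58.2%) than any HFD library (31.9% to 32.9%); the part of either in these changes was not tested. Without albumin (Alb), the other 5 markers summed to 22794 to 40561 CPM in NCD and 38595 to 40788 in HFD, which overlapped. Of these 5, Tat and Serpina1c were higher in every NCD library than in any HFD library. Ttr, Apoa1 and Fgb had higher means in HFD than in NCD, and their libraries overlapped. In whole liver, fewer cells of a type and less RNA per cell cannot be told apart.

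**Figure D1:**
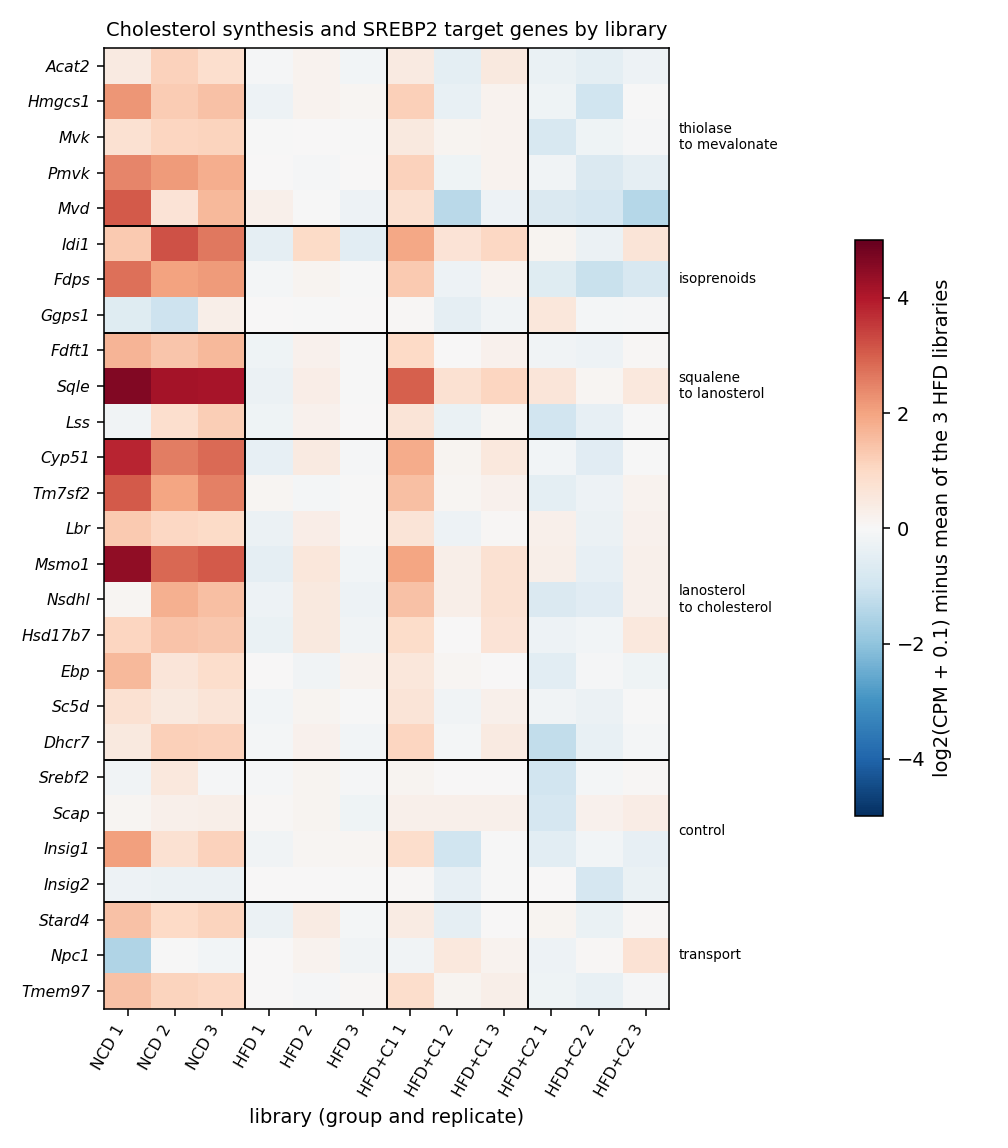
Each row is 1 of the 27 genes in pathway order and each column 1 of the 12 libraries. Color gives log2(CPM + 0.1) minus the mean of the 3 HFD libraries. The section labelled thiolase to mevalonate holds all genes of the mevalonate steps, through Mvd. The NCD columns are red through most synthesis rows, Srebf2, Scap and Insig2 are pale there, and among the compound libraries HFD+C1 replicate 1 is the reddest column.

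In the mevalonate steps, all 5 genes had every HFD library below every NCD library and 3 of them fell. Hmgcs1 encodes the cytosolic synthase that makes HMG-CoA. It read 576, 303 and 343 CPM in the 3 NCD libraries and 104, 141 and 135 CPM in HFD, a log2 change of -1.68 (SE 0.28, adjusted p = 0.0226). Pmvk, which adds the second phosphate to mevalonate, read 169, 134 and 108 CPM in NCD and 31.0, 29.5 and 31.3 CPM in HFD. Its fall of 4.44-fold (log2 -2.15, SE 0.21, adjusted p = 0.00395) was one of only 2 that were called under each of the 14 alternative settings of the diet test, the other being Sqle. Mvk, the kinase before it, went from 25.6 ± 3.36 (SD, n = 3) to 12.8 ± 0.0219 CPM (log2 -0.98, adjusted p = 0.0275). Mvd, the decarboxylase that yields isopentenyl pyrophosphate, read 13.5, 2.53 and 4.97 CPM in NCD and 1.86, 1.52 and 1.26 in HFD. Its log2 change of -2.19 had an SE of 0.54 and missed the threshold by little (adjusted p = 0.0502); its NCD replicates, from 12 to 159 counts, were the most uneven of the 5 genes. Acat2, the cytosolic thiolase that opens the route, changed by -0.82 on the log2 scale from 26.9 ± 6.54 to 14.96 ± 1.76 CPM and did not pass the test (adjusted p = 0.0613). Acat2 has a near-identical neighbor, Acat3, and reads that map to both could be lost from either.

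At the isoprenoid steps, the isomerase and the prenyl chain synthase of the sterol route fell, while the synthase that leads away from it did not pass the test. Fdps makes farnesyl pyrophosphate, the last intermediate shared with non-sterol products. It read 778, 468 and 504 CPM in NCD against 107, 125 and 114 CPM in HFD, a 5.00-fold fall (log2 -2.32, SE 0.24, adjusted p = 0.00431). Idi1, the isopentenyl isomerase, read 12.4, 45.5 and 30.9 CPM in NCD and 3.62, 9.53 and 3.42 in HFD. Its groups did not overlap, but NCD replicate 1, which was the highest NCD library for Fdps, was the lowest for Idi1, and the log2 change of -2.39 carried an SE of 0.54 (adjusted p = 0.0441). Ggps1 makes geranylgeranyl pyrophosphate for protein prenylation. Its level was 4.11 ± 2.03 CPM in NCD and 5.27 ± 0.119 CPM in HFD, a log2 change of 0.30 with overlapping groups (adjusted p = 0.573).

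The largest change of all 27 genes was at the entry to the sterol ring. Sqle encodes squalene epoxidase, a rate-controlling oxygenase of the late pathway. It read 74.6, 54.6 and 53.3 CPM in NCD and 2.36, 3.76 and 2.89 CPM in HFD. That is 20.1-fold less (log2 -4.33, SE 0.26, adjusted p = 0.000492), with each group tight relative to the gap between them. Fdft1, squalene synthase, which commits farnesyl pyrophosphate to sterols, read 226, 179.6 and 214 CPM in NCD and 60.2, 80.7 and 67.7 CPM in HFD (log2 -1.56, SE 0.19, adjusted p = 0.00718). Lss, the cyclase that closes the ring to lanosterol, did not pass the test at 20.2 ± 8.81 CPM in NCD and 12.2 ± 1.83 CPM in HFD (log2 -0.72, adjusted p = 0.182). In NCD replicate 1 Lss read 10.7 CPM, within the HFD range, while the other NCD libraries read 21.9 and 28.1.

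**Figure D2:**
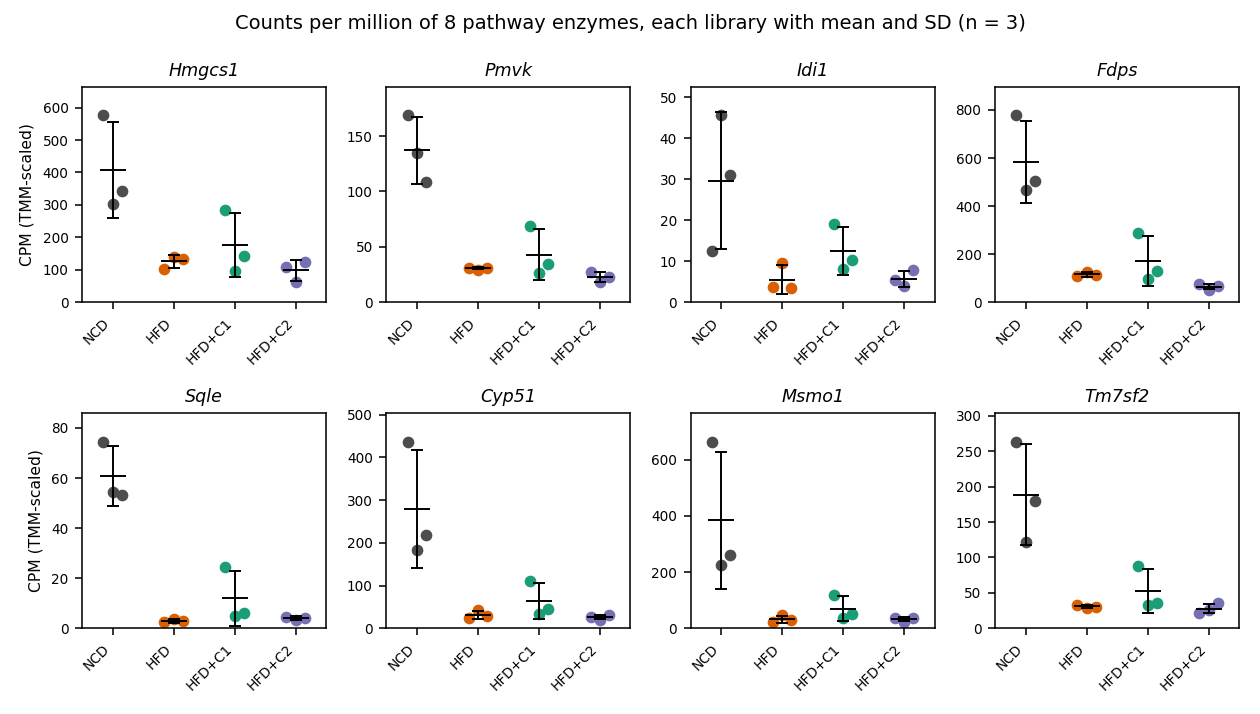
CPM (TMM-scaled, vertical axes from 0) of 8 enzymes in each library, with the mean and SD of 3 libraries per group. All HFD points lie below all NCD points in each panel, and in HFD+C1 replicate 1 is the highest of its group in every panel.

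Among the 9 genes from lanosterol to cholesterol, 5 fell and all 9 had a log2 change below 0, with a median of -1.23. The largest changes were early in this section. Msmo1, the C4 sterol methyl oxidase, read 664, 225 and 263 CPM in NCD and 22.4, 46.3 and 28.4 CPM in HFD, 11.8-fold less (log2 -3.56, SE 0.48, adjusted p = 0.0106). Cyp51, the cytochrome P450 that removes the first methyl group of lanosterol, read 437, 183 and 219 CPM in NCD and 23.2, 42.0 and 29.8 CPM in HFD (log2 -3.13, SE 0.38, adjusted p = 0.00718). For both, NCD replicate 1 exceeded the remaining NCD libraries by a wide margin, and these in turn lay above every HFD library. Tm7sf2 and Lbr encode reductases for the same next step, Lbr being also a protein of the inner nuclear membrane. Tm7sf2 read 264, 123 and 179 CPM in NCD and 33.5, 29.4 and 30.6 CPM in HFD (log2 -2.58, SE 0.28, adjusted p = 0.00478). For Lbr the values were 6.90 ± 0.968 and 3.22 ± 0.731 CPM, with groups apart and a log2 change of -1.09 that missed the threshold (adjusted p = 0.0502).

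Further down this section the changes were smaller than those of Msmo1, Cyp51 and Tm7sf2. Hsd17b7, a 3-ketosteroid reductase of the demethylation complex, read 20.7, 25.9 and 24.8 CPM in NCD and 7.71, 13.7 and 8.51 CPM in HFD (log2 -1.24, SE 0.25, adjusted p = 0.0374). Nsdhl, the sterol dehydrogenase of the same complex, read 14.1, 44.7 and 37.8 CPM in NCD and 11.1, 18.6 and 10.9 CPM in HFD. Its groups overlapped because NCD replicate 1 lay inside the HFD range, and its log2 change of -1.23 did not pass the test (adjusted p = 0.0985). Dhcr7, which reduces the last double bond in one branch, went from 27.7 ± 6.90 to 14.0 ± 1.82 CPM and was the weakest call of the section (log2 -0.97, adjusted p = 0.0473). Ebp, the sterol isomerase, went from 709 ± 277 to 332 ± 39.7 CPM (log2 -1.08, adjusted p = 0.0579), and Sc5d, the desaturase, from 349 ± 36.8 to 226 ± 19.2 CPM (log2 -0.61, adjusted p = 0.0696); neither passed, though in both every HFD library was below every NCD library.

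The control genes did not move as a block. Srebf2 read 14.7, 24.0 and 15.9 CPM in NCD and 16.0, 18.1 and 15.8 CPM in HFD, and its groups overlapped. The log2 change of -0.10 (SE 0.22, adjusted p = 0.804) is among the nearest to 0 of the 27, its sign turned with no filter on low counts (0.071) and ranged from -0.21 to 0.16 on leaving out single libraries. Scap, the escort, read 50.3, 55.7 and 58.0 CPM in NCD and 48.8, 52.5 and 41.0 CPM in HFD (log2 -0.19, SE 0.17, adjusted p = 0.480), again with overlap. Insig1 fell: it read 566, 230.0 and 301 CPM in NCD and 119.7, 146 and 145 CPM in HFD (log2 -1.41, SE 0.32, adjusted p = 0.0452). Insig2, whose product has the same retention role but whose liver transcription is known to be under other control, read 288, 277 and 274 CPM in NCD and 341, 341 and 337 CPM in HFD. Its HFD libraries were all above its NCD libraries, by a log2 change of 0.29 (SE 0.16) that did not pass the test (adjusted p = 0.254). Counts of Srebf2 mRNA do not report how much of its protein was processed.

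Of the 3 transport genes, 2 fell. Tmem97, an endoplasmic reticulum and lysosomal protein that binds Npc1, read 69.9, 54.6 and 51.6 CPM in NCD and 25.8, 24.1 and 26.4 CPM in HFD (log2 -1.19, SE 0.18, adjusted p = 0.0176). Stard4, a soluble sterol carrier, went from 71.4 ± 12.3 to 31.8 ± 8.17 CPM (log2 -1.16, adjusted p = 0.0354). Npc1, the lysosomal cholesterol exporter, had the most positive log2 change of the 27 (0.45, SE 0.34, adjusted p = 0.407), with levels of 26.3 ± 12.2 CPM in NCD and 35.4 ± 4.30 CPM in HFD. In NCD replicate 1 Npc1 read 12.4 CPM against 35.0 and 31.6 in the others, and the groups overlapped.

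**Figure D3:**
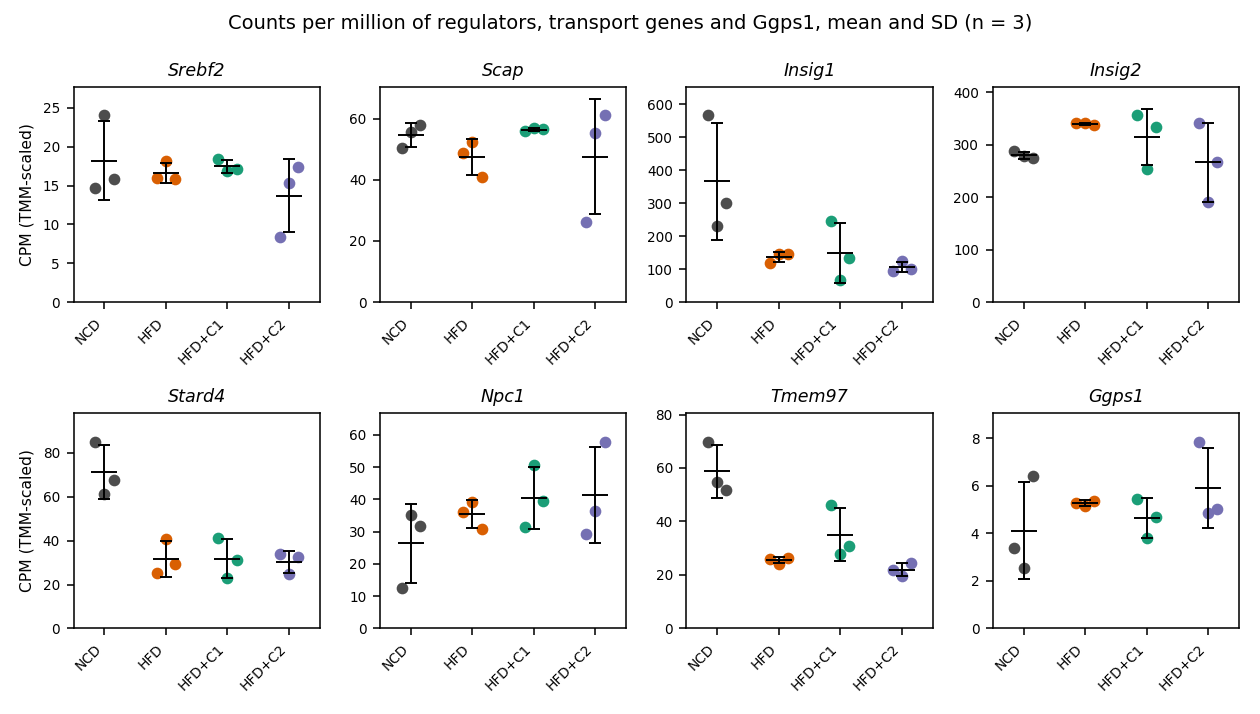
CPM (TMM-scaled, vertical axes from 0) of the 4 control genes, the 3 transport genes and Ggps1 in each library, with the mean and SD of 3 libraries per group. NCD and HFD points are apart for Insig1, Insig2, Stard4 and Tmem97 and overlap for Srebf2, Scap, Npc1 and Ggps1.

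On 6 lists of neighboring pathways, 7 of 57 genes were called under the diet, against 6.03% of all genes, not all in the same direction, and no difference between a list and the 27 genes was tested. The 7 calls became 0 without HFD replicate 3, 1 without HFD replicate 1, 2 without HFD replicate 2, 19 without NCD replicate 1, where 13.7% of all genes were called, and 18 with DESeq2, where 16.6% were. Blocking on replicate number left Abcg5, Mylip, Cyp7a1 and Cyp7b1 called, with 3.48% of all genes called in that setting. Of 10 genes for SREBP processing and sterol-regulated degradation, 0 were called by edgeR (4 had an unadjusted p under 0.05, and DESeq2, which called 16.6% of all genes, called 2), and their median log2 change was -0.14. In the non-sterol isoprenoid branch, 1 of 10 fell, the geranylgeranyl transferase subunit Rabggtb (log2 -0.82, adjusted p = 0.0419), with a median of 0.00 for the list. Sterol storage and transport had 0 of 10 called by edgeR (4 at an unadjusted p under 0.05, with Gramd1c, Npc2 and Stard5 called by DESeq2) and a median of -0.08. Of 14 SREBP1c and lipogenic targets, 4 had all HFD libraries below NCD and 3 had them above, against 18.7% and 18.4% of all genes. On this list 2 passed the test, both higher in HFD: the fatty acid elongase Elovl5 (log2 0.93, adjusted p = 0.0397) and the desaturase Fads2 (log2 0.79, adjusted p = 0.0485). That direction depended on the setting, since DESeq2 called these 2 and Acaca higher and Acacb, Acly, Acss2 and Me1 lower, while library size alone called only Acly and Acss2, both lower. The LXR list of 9 genes held targets of this oxysterol receptor and the genes of the receptor itself, Nr1h3 and Nr1h2. On it 2 rose and 0 fell, with a median of 0.91. The 2 were the sterol exporter Abcg5 (log2 1.37, adjusted p = 0.0235) and the ubiquitin ligase Mylip (log2 1.39, adjusted p = 0.0268). In bile acid synthesis 2 of 4 fell, Cyp7a1, the rate-limiting enzyme of the classical route (log2 -2.68, SE 0.29, adjusted p = 0.00478), and Cyp7b1, an oxysterol hydroxylase (log2 -1.77, adjusted p = 0.0238).

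The next question was whether C1 moved the pathway in mice that stayed on the high-fat diet. No member passed the test in HFD+C1 against HFD: 0 of 27 were called by edgeR and 10 had an unadjusted p under 0.05. DESeq2 called 0 of the 27 and 0.576% of all genes. With no filter on low counts edgeR called 9 higher (Idi1, Fdps, Sqle, Cyp51, Tm7sf2, Msmo1, Nsdhl, Dhcr7 and Pmvk), where 0.690% of all genes were called. Without HFD replicate 2 edgeR called 1, Idi1, where 0.767% of all genes were called. Over all 13358 genes tested, 7 were called (0.0524%) and 1035 had an unadjusted p under 0.05. The log2 change was above 0 for 25 of 27 genes, with a median of 0.28 against 0.01 over all genes. For 4 genes (Mvk, Sqle, Scap, Tmem97) every C1 library was above every HFD library, where 6.36% of all genes were.

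The smallest p belonged to Sqle, the gene lowest in HFD relative to NCD. It read 24.4, 5.12 and 6.33 CPM in HFD+C1 against 2.36, 3.76 and 2.89 CPM in HFD, a log2 change of 2.01 (SE 0.47, unadjusted p = 0.000956, adjusted p = 0.219), and replicate 1 stood far above the other C1 libraries. Nsdhl read 36.4, 16.1 and 22.5 CPM in HFD+C1 (log2 0.89, SE 0.27, adjusted p = 0.381), with replicate 2 inside the HFD range. Msmo1 read 120.2, 38.3 and 52.8 CPM (log2 1.13, SE 0.35, adjusted p = 0.408), again with only replicate 2 inside that range. Without C1 replicate 1 the log2 change was 0.93 for Sqle, 0.50 for Nsdhl and 0.49 for Msmo1. Other enzymes followed the same order of libraries. Hmgcs1 read 286, 97.1 and 143 CPM, Pmvk 68.8, 26.2 and 34.2 CPM and Cyp51 111, 33.4 and 44.8 CPM in C1 replicates 1, 2 and 3. Idi1 read 19.1, 8.01 and 10.3 CPM, Fdft1 138, 69.5 and 80.3 CPM and Tm7sf2 87.8, 32.9 and 36.3 CPM. In each of these 6 genes replicate 1 was highest and replicate 2 lowest.

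Library by library, the values in C1 replicate 1 set the size of these differences. It was the highest of the C1 group for 24 of the 27 genes, while it was highest for 36.9% of all genes, and replicate 2 was the lowest for 24, while it was lowest for 31.9% of all genes. Replicate 1 exceeded all 3 HFD libraries in 26 genes, replicate 3 in 17 and replicate 2 in 5, against 28.8%, 25.7% and 25.1% of all genes. The median over the genes of replicate 1 divided by the mean of the other C1 libraries was 1.69, with a range of 0.696 to 4.27. Without replicate 1, the median log2 change against HFD was 0.06, 17 of 27 genes were above 0 and 0 were called; without replicate 2 the median was 0.48. Reads outside genes made up 27.3% of replicate 1 and at most 28.7% of the other C1 libraries, and its depth was the largest of the group. The 6 Kupffer cell and macrophage markers summed higher in every C1 library than in any HFD library (160 to 203 against 96.2 to 129 CPM); their part in the values of these genes was not tested.

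**Figure D4:**
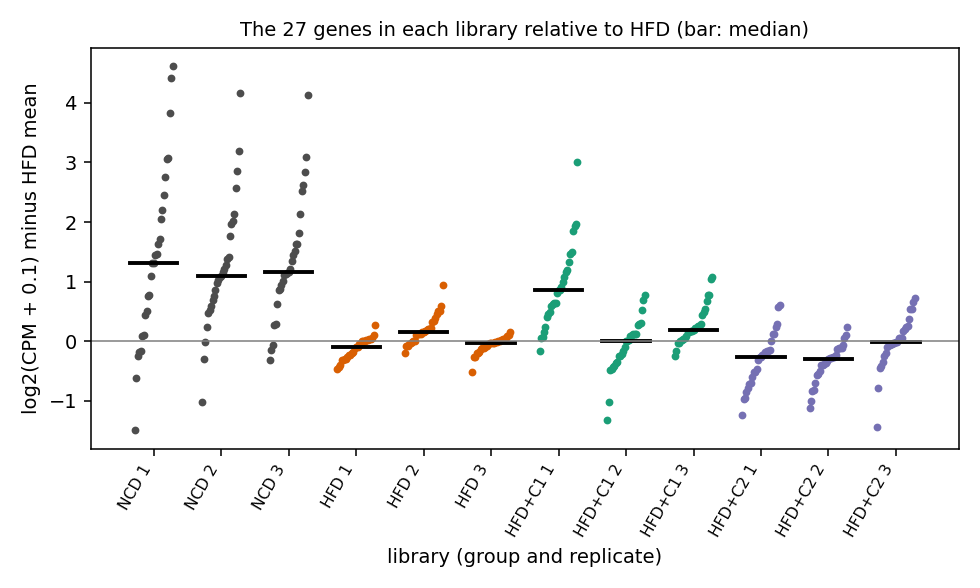
Each point is 1 of the 27 genes in 1 library, as log2(CPM + 0.1) minus the mean of the 3 HFD libraries, ordered by value within the library, and the black bar is the library's median. The median is 0.86 in HFD+C1 replicate 1 and 0.01 and 0.19 in replicates 2 and 3, and the 3 HFD+C2 libraries lie between -0.31 and -0.02.

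Under C1 none of the 4 control genes passed the test. Srebf2 read 18.4, 16.9 and 17.1 CPM (log2 0.07, SE 0.12) and Scap 55.9, 56.8 and 56.5 CPM (log2 0.25, SE 0.12). The 3 Scap values were nearly equal and lay above the HFD values, with an adjusted p of 0.657. Insig1 read 247, 67.4 and 134 CPM (log2 0.13, SE 0.32), spanning both sides of the HFD range, and its sign turned without replicate 1 (-0.45). Insig2 read 356, 254 and 333 CPM (log2 -0.11, SE 0.13). Among the transport genes, Tmem97 read 46.3, 27.7 and 30.9 CPM (log2 0.46, SE 0.17, adjusted p = 0.491), while the log2 change was 0.00 (SE 0.20) for Stard4 and 0.19 (SE 0.16) for Npc1.

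With C2 most values lay below HFD, and again no gene passed the test. In HFD+C2 against HFD, 0 of 27 were called by edgeR, 4 had an unadjusted p under 0.05, and DESeq2 called 1, Fdps (0.259% of all genes), as did edgeR with no filter on low counts (0.531%); over all 13503 genes, 3 were called (0.0222%) and 931 had an unadjusted p under 0.05. Leaving out HFD+C2 replicate 1, the library with 47.1% of reads outside genes, also gave 1 call, Fdps, with 0.199% of all genes called. The log2 change was below 0 for 20 of 27 genes with a median of -0.26, against 0.02 over all genes; the median became -0.14 without C2 replicate 2 and -0.16 without C2 replicate 1. Every C2 library was below every HFD library for 5 genes (Acat2, Mvk, Pmvk, Mvd and Fdps), where 6.64% of all genes were. Of these, 4 belong to the 5 genes of the mevalonate steps, while 0 of the 9 genes from lanosterol to cholesterol were apart.

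Fdps read 75.8, 52.8 and 67.0 CPM in HFD+C2 against 107, 125 and 114 CPM in HFD, a log2 change of -0.84 (SE 0.18, unadjusted p = 0.000972, adjusted p = 0.625). Mvd read 0.901, 0.822 and 0.503 CPM (log2 -1.08, SE 0.34, adjusted p = 0.695), which rests on 12 to 21 counts in each C2 library. Pmvk read 27.4, 18.7 and 22.5 CPM (log2 -0.43, SE 0.17, adjusted p = 0.695). For these genes the C2 libraries were all low, with no single library setting the difference. The enzymes furthest below NCD on the high-fat diet were near their HFD levels: Sqle read 4.56, 3.17 and 4.32 CPM (log2 0.41, SE 0.25), Msmo1 37.9, 23.3 and 36.9 CPM (log2 0.01, SE 0.28) and Cyp51 27.8, 20.8 and 30.3 CPM (log2 -0.28, SE 0.23). Hmgcs1 read 108, 62.2 and 124 CPM, Idi1 5.36, 4.03 and 7.79 CPM and Fdft1 61.7, 57.3 and 71.9 CPM, each overlapping HFD.

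In HFD+C2 replicate 1, Srebf2 and Scap stood apart from the other 2 libraries. This library, with 47.1% of its reads outside genes, was the lowest of its group for 42.3% of all genes and the highest for 39.7%. Srebf2 read 8.41, 15.3 and 17.3 CPM and Scap 26.2, 55.4 and 61.0 CPM in C2 replicates 1, 2 and 3. Both were lowest in replicate 1, and the Scap log2 change of 0.00 (SE 0.28) became 0.29 without it. Insig1 read 95.4, 124 and 102 CPM (log2 -0.36, SE 0.18, adjusted p = 0.695) and Insig2 340.3, 191 and 268 CPM (log2 -0.36, SE 0.22). Tm7sf2 read 22.4, 25.8 and 35.2 CPM, Nsdhl 7.96, 8.89 and 15.5 CPM and Hsd17b7 8.01, 8.89 and 14.1 CPM. Tmem97 read 21.7, 19.5 and 24.4 CPM (log2 -0.23, SE 0.15), with its replicate 3 inside the HFD range.

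C1 and C2 were given at the same dose and for the same time, so they form 1 matched pair, compared directly in 6 libraries. In HFD+C2 against HFD+C1, 0 of 27 genes were called by edgeR, 14 had an unadjusted p under 0.05 and DESeq2 called 0, while edgeR with no filter on low counts called 10, all lower with C2, where 0.551% of all genes were called; over all 13229 genes 0 were called (0%), 608 of them with an unadjusted p under 0.05. The log2 difference was below 0, meaning lower with C2, for 25 of 27 genes, with a median of -0.60 against 0.01 over all genes. Every C2 library was below every C1 library for 9 genes (Mvk, Idi1, Fdps, Sqle, Cyp51, Msmo1, Nsdhl, Ebp and Tmem97), where 6.09% of all genes were. The smallest p values were those of Fdps (log2 -1.40, 95% interval -2.24 to -0.55), Nsdhl (-1.21, -1.97 to -0.45) and Tmem97 (-0.68, -1.15 to -0.20), each with an adjusted p of 0.841. Without C1 replicate 1 these differences were -0.79 for Fdps, -0.83 for Nsdhl and -0.42 for Tmem97. Intervals unadjusted for the number of genes held 0 for 13 genes and lay below 0 for 14.

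Several intervals held 0. For Stard4 the 95% interval was -0.58 to 0.44, for Npc1 -0.57 to 0.64, for Lbr -0.78 to 0.51 and for Srebf2 -0.90 to 0.21; the width over the 27 genes ran from 0.949 to 2.52 log2 units. Without C1 replicate 1 the median difference was -0.31, with 23 of 27 genes below 0 and 4 at an unadjusted p under 0.05. The labels give no structures for C1 and C2, so no structural difference is named.

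**Figure D5:**
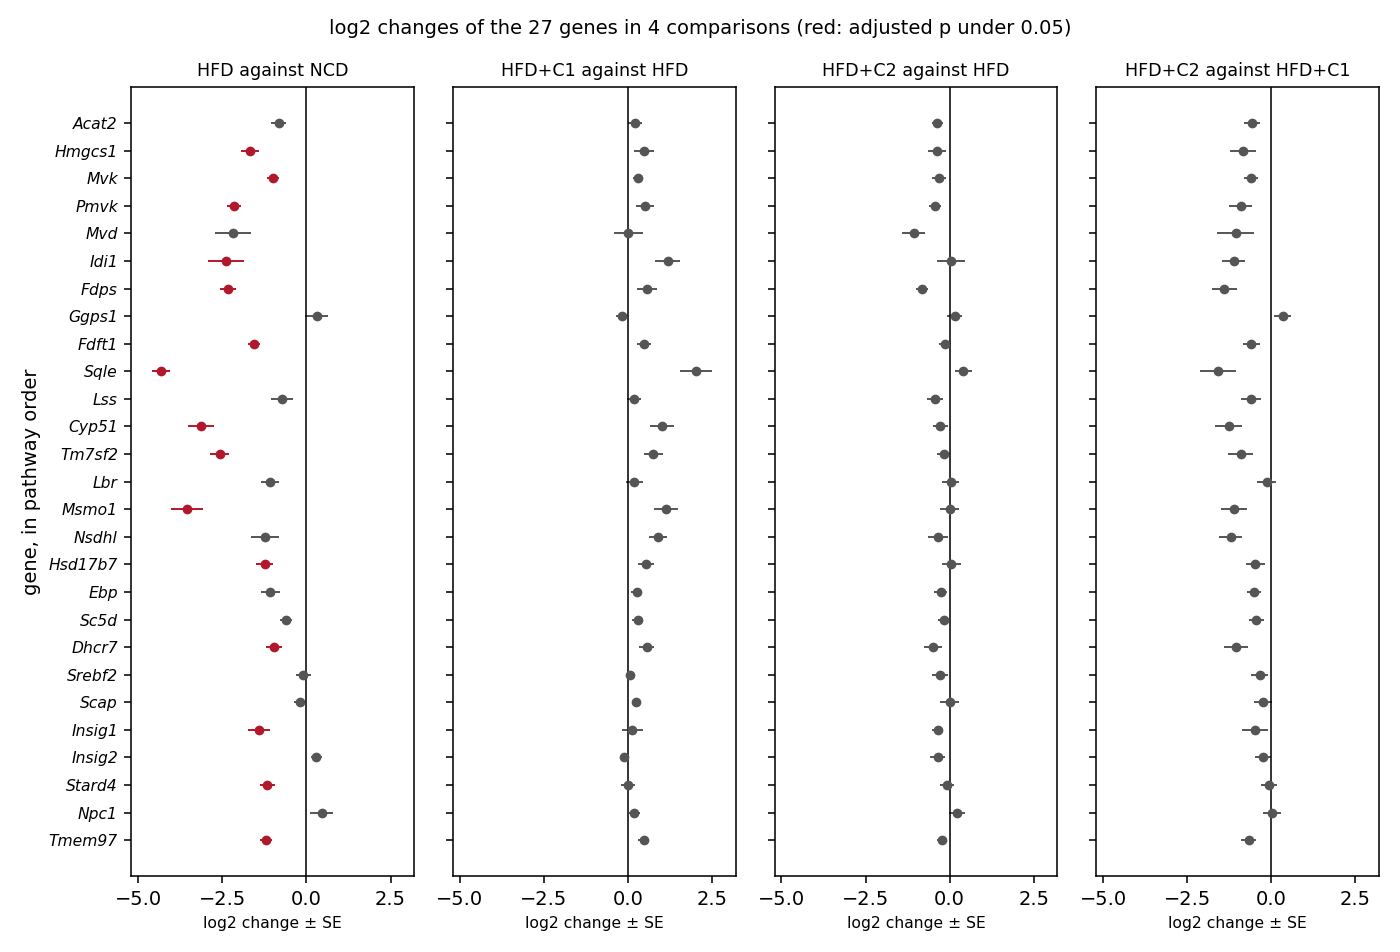
Points are log2 changes with their SE for the 27 genes in pathway order in 4 comparisons of 3 against 3 libraries; red marks an adjusted p under 0.05 by edgeR. The diet panel holds all 15 red points, all to the left of 0, while the C1 points lie mostly to the right of 0 and the C2 points mostly to the left, none of them red.

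Against chow, the 2 compound groups could be placed beside the HFD group; these comparisons share the NCD libraries with the diet comparison, so their values stand side by side and do not support each other. HFD+C1 against NCD called 2 of 27 genes lower, Pmvk (log2 -1.67, SE 0.36, adjusted p = 0.0486) and Stard4 (-1.17, SE 0.24, adjusted p = 0.0464), where 1.93% of all genes were called lower. Its median was -0.84 and 14 genes had all C1 libraries below NCD, where 17.8% of all genes did. The same 2 genes were called with median-ratio scaling, upper-quartile scaling and a mean of at least 50 counts, where 3.18% to 3.25% of all genes were. Otherwise the count moved: it was 9 with library size alone, 14 with DESeq2, 15 with all 12 libraries in one fit, 12 without NCD replicate 1, 1 without NCD replicate 2 (Msmo1) or C1 replicate 1 (Sqle) and 0 without NCD replicate 3 or without C1 replicate 2 or 3. Over all genes 3.40% were called in either direction. This share was 4.75% with library size alone, 15.8% with DESeq2 and 16.0% with all 12 libraries. It was 12.1%, 3.51% and 0.413% without NCD replicates 1, 2 and 3. Without C1 replicates 1, 2 and 3 it was 0.0809%, 0.358% and 0.0799%. SEs in HFD+C1 against NCD were wide: Sqle changed by -2.34 (SE 0.55, adjusted p = 0.0585) and Msmo1 by -2.45 (SE 0.54, adjusted p = 0.0508). HFD+C2 against NCD called 14 of 27 lower, where 1.07% of all genes were, with a median of -1.40 and 20 genes apart, where 16.2% of all genes were. There Sqle changed by -3.90 (SE 0.27, adjusted p = 0.00234), Cyp51 by -3.39 (SE 0.38, adjusted p = 0.0141) and Fdps by -3.14 (SE 0.31, adjusted p = 0.00932). Without both NCD replicate 1 and HFD+C2 replicate 1 this count was 22, with 9.65% of all genes called in either direction against 1.60% with all 6 libraries; it was 8 without NCD replicate 2 (0.416% of all genes) and 3 without C2 replicate 1 (0.0797%), and without NCD replicate 3, C2 replicate 2 or C2 replicate 3 it was 1, with 0.0145% to 0.0217% of all genes called.

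By group means, NCD was highest for 23 of the 27 genes, against 39.6% of all genes, and 17 had the order NCD, HFD+C1, HFD, HFD+C2, against 7.39%. Over the 27 genes, each ranked in its own order, the groups ranked 2 and 3 overlapped in 22 and those ranked 3 and 4 in 23, against 94.7% and 84.9% of all genes. NCD was highest and lay apart from the next group in 15, against 9.49% of all genes. As a share of the NCD mean, Sqle stood at 4.94% in HFD, 19.7% in HFD+C1 and 6.60% in HFD+C2. For Msmo1 these shares were 8.43%, 18.4% and 8.52%, and for Fdps 19.8%, 29.4% and 11.2%. Ggps1, Scap, Insig2 and Npc1 were the genes for which NCD was not the highest group.

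Of the 57 genes on the 6 neighboring lists, 0 were called by edgeR in either compound comparison with HFD. With edgeR, 9 had an unadjusted p under 0.05 for C1 and 9 for C2. DESeq2 called 1 for C1 (Cyp7a1) and 3 for C2 (Acacb, Cyp7a1 and Fasn), where 0.576% and 0.259% of all genes were called. With no filter on low counts, edgeR called 3 for C1 (Cyp7a1, Cyp8b1 and Scd1), where 0.690% of all genes were called. In that setting it called 3 for C2 (Acacb, Cyp7a1 and Fasn), where 0.531% were. For C1, edgeR also called Cyp7a1 without HFD replicate 2 (0.767% of all genes), without C1 replicate 2 (0.0372%) and with the replicate block (0.270%). For C2 it called Acacb and Cyp7a1 without C2 replicate 1 (0.199%). Under C1 the largest signal among them was Cyp7a1, which read 7.58, 4.22 and 6.64 CPM on the diet alone, 16.4, 10.9 and 17.3 CPM with C1 and 11.0, 31.3 and 13.6 CPM with C2. All C1 and all C2 libraries lay above HFD, by 1.27 (SE 0.22, adjusted p = 0.0925) and 1.60 (SE 0.39, adjusted p = 0.695) on the log2 scale, and neither passed the test. Under C2, 13 of the 14 SREBP1c and lipogenic targets had a log2 change below 0, with a median of -0.48 and 5 at an unadjusted p under 0.05, and under C1 8 of 14 were below 0 with a median of -0.07 and 1 at that p. Acacb, a carboxylase that makes malonyl-CoA at mitochondria, read 10.6, 8.22 and 10.9 CPM in HFD+C2 against 25.1, 20.7 and 23.9 in HFD (log2 -1.24, SE 0.17, adjusted p = 0.135). Fasn, fatty acid synthase, read 97.8, 137 and 128 CPM against 327, 202 and 278 (log2 -1.16, SE 0.23, adjusted p = 0.606).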

How the data were processed

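Liver RNA was measured in 12 libraries, 3 per group. The authors deposited 3 tables, one per comparison, and each deposited value is the count of reads for a gene; the name calls them normalized, but the values are whole numbers with totals from 6654983 to 47352550, and the HFD columns are identical in all 3 (0 cells differ), so they were treated as raw counts. Per the submitters' processing notes, the tools included Trimmomatic 0.39, STAR 2.7 and DESeq2 with build mm10; the annotation, use of strand and filters are not given in the sources used here. A set of 4 rows naming no gene held 27.3% to 58.2% of a library's reads and was left out. Reads mapping to several places form one of these rows.

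Each comparison took its 6 libraries and the genes averaging 10 counts or more there, tested with edgeR 4.0.16 (R 4.3.3; TMM scaling, quasi-likelihood test, Benjamini-Hochberg adjustment over all genes tested, call at an adjusted p under 0.05). All 27 genes passed this filter in each of 6 comparisons. SEs were taken from the log2 change and its F statistic. Printed CPM are scaled by TMM over 12 libraries, and groups not overlapping were read on that scale. Levels in the plots use a pseudocount of 0.1 CPM. Floors of 3 counts cover counting error only. Alternatives were other scalings, DESeq2 1.42.0, dropping the filter or raising it to 50 counts, all 12 libraries in one fit, the replicate number as a block and leaving out each library; leaving out NCD replicate 1 and HFD+C2 replicate 1 together was added after seeing the data.

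The genes and lists were chosen with earlier results of these data known. Values in every library are given for called genes with groups apart (up to 12 by diet change), the 4 control genes, the 3 smallest p in each compound comparison and the 2 genes nearest 0; Mvk and the genes used to show the order of libraries were added after their values were seen. Other lists are given by counts and up to 3 genes. The result of 1 gene on these lists is not reported here.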

Additional observations from a re-analysis of the deposited data

Results flagged for a closer look

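Mvk, mevalonate kinase, stood out between the compounds, because every HFD+C1 library lay above every HFD library and every HFD+C2 library below. It read 18.1, 14.0 and 14.5 CPM in HFD+C1, 12.8, 12.8 and 12.8 in HFD and 7.41, 10.9 and 12.4 in HFD+C2. The 3 HFD values were nearly equal, which leaves little room for overlap on either side. Tested directly, the log2 difference of HFD+C2 against HFD+C1 was -0.60 (SE 0.21, 95% interval -1.08 to -0.11) and did not pass the edgeR test (Benjamini-Hochberg adjusted p = 0.841).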

How the results depend on the processing

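Directions in the diet comparison held more firmly than calls. Of the 27 genes, between 23 and 24 were below 0 under every alternative run for HFD against NCD, while the number called ranged from 2 to 22 when 1 library was left out and from 12 (replicate number as a block) to 21 (DESeq2) otherwise. The median log2 change moved from -1.19 to -1.41 with library size alone, which also moved the median of all genes to -0.24, to -0.9999 with no filter on low counts, where the median of all genes was -0.62, and between -1.37 and -1.08 with 1 library left out. Sqle and Pmvk were called under all 14 alternatives, and Cyp51, Fdft1, Fdps, Msmo1 and Tm7sf2 under 12.

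In the compound comparisons, no filter on low counts gave 9 members called for HFD+C1 against HFD (0.690% of all genes). It gave 1 for HFD+C2 against HFD (0.531%) and 10 for HFD+C2 against HFD+C1 (0.551%). DESeq2 gave 1 for HFD+C2 against HFD (0.259%). Leaving out 1 library gave 0 to 1 in both comparisons with HFD, with at most 0.767% of all genes called for C1 and 0.199% for C2. For HFD+C1 against NCD the count of 2 (3.40% of all genes) became 9 with library size alone, 14 with DESeq2, 13 with no filter (12 lower and 1, Npc1, higher; 10.4% of all genes), 15 with all 12 libraries in one fit, 13 with the replicate block (12.2%), and 0 to 12 with 1 library left out. For HFD+C2 against NCD the count of 14 (1.60% of all genes) became 22 with DESeq2 (10.4%), 22 with all 12 libraries in one fit (19.1%), 22 without NCD replicate 1 and HFD+C2 replicate 1, and 1 to 17 with 1 library left out; its median became -1.69 with library size alone. Leaving out a library leaves fewer samples, and the cause of the other shifts was not tested.

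Over all 27 genes, the number below 0 ranged from 2 to 10 in HFD+C1 against HFD, the most without HFD+C1 replicate 1, and from 18 to 25 in HFD+C2 against HFD. The sign changes among the 4 control genes were these. Srebf2 against NCD took 0.071 with no filter for HFD (-0.21 to 0.16 with 1 library left out) and 0.066 with no filter for HFD+C1 (-0.15 to 0.21). Scap in HFD+C2 against HFD took 0.0071 with upper-quartile scaling, 0.00031 with a mean of at least 50 counts, 0.0019 with all 12 libraries and -0.22 to 0.29 with 1 left out. Scap in HFD+C1 against NCD took -0.037 with upper-quartile scaling, -0.14 with library size alone, -0.016 with a mean of at least 50 counts and -0.021 to 0.085 with 1 left out. Scap in HFD+C2 took -0.46 to 0.047 against HFD+C1 and -0.40 to 0.11 against NCD with 1 left out, and 0.034 against NCD without both doubted libraries. Insig1 took -0.059 with the replicate block and -0.45 to 0.48 with 1 left out in HFD+C1 against HFD, and -0.83 to 0.095 in HFD+C2 against HFD+C1. Insig2 took -0.22 to 0.019 with 1 left out in HFD+C1 against HFD, -0.018 with library size alone in HFD+C1 against NCD, and 0.078 with no filter and -0.27 to 0.16 with 1 left out in HFD+C2 against NCD.

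Replicate numbers did not pair the libraries: 5 of 18 correlations of same-numbered libraries were above 0.1 (range -0.109 to 0.237). The replicate block called 12 members for HFD against NCD, where 3.48% of all genes were called. For HFD+C2 against NCD it called 19, where 5.73% of all genes were. Without the block these shares were 6.03% and 1.60%. The share of all genes called in HFD against NCD ran from 0.165% to 17.4% over the alternatives. Precision was limited by 3 libraries a group and by 4281210 gene reads in the shallowest, where Mvd rested on 12 counts.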
